A study of Mus musculus with 20 samples.

Results

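Cathepsins are proteases that work mainly in lysosomes, and 10 of them were examined here across the 4 genotypes of a tau transgenic mouse study: Ctsa, Ctsb, Ctsc, Ctsd, Ctsf, Ctsh, Ctsl, Ctso, Ctss and Ctsz. They were taken by gene symbol from the 24513 genes of the count files, and all 10 were among the 16657 genes with enough counts to be tested. Polyadenylated RNA of the hippocampus was sequenced from 9-month-old male mice labelled C57BL/6J, with 5 libraries for each genotype. PS19 mice carry a transgene for mutant human tau driven by the mouse prion protein (Prnp) promoter. PS19/C3aR KO mice carry that transgene and a knockout of C3ar1, the gene of the receptor for complement fragment C3a. C3aR KO mice carry the knockout alone, and WT mice carry neither. Whether the 5 libraries of a genotype are 5 animals is not stated in the labels, and the p-values therefore rest on the spread among libraries, part of which may be technical.

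Cathepsins are made as inactive precursors, carried to the lysosome mostly by mannose 6-phosphate receptors and cut to their active form at acidic pH. Ctsd is an aspartic protease, Ctsa a serine carboxypeptidase, and the other 8 are cysteine proteases of the papain family, which cystatins inhibit. Neurons and glia all use them to degrade protein, and Ctss in mouse brain is known mainly from microglia. In people, loss of CTSD or CTSF causes neuronal ceroid lipofuscinosis, a lysosomal storage disease of neurons.

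The coding sequence around the catalytic residue is printed for 8 members from GENCODE vM21 transcripts on the coding strand. Each stretch is 30 bases long, with the codon of the catalytic residue in capitals. So short a stretch does not show how closely the members are related. Each site was found by an amino acid pattern that contains the catalytic residue, so the residue and part of its surroundings were set in advance. The codon used for it was TGT or TGC for cysteine in the 7 cysteine proteases shown, and AGC for serine in Ctsa. Among these 7 cysteine windows the identity ran from 13 of 30 bases between Ctsc and Ctsl to 23 of 30 between Ctsb and Ctsl.
Ctsa: ttcctgacaggagagAGCtatgctggcatc
Ctsb: ggctcctgcggctctTGTtgggcatttggg
Ctsl: ggccagtgcgggtctTGTtgggcgtttagc
Ctss: ggttcttgtggtgccTGCtgggctttcagt
Ctso: gagatgtgtggaggaTGCtgggccttcagc
Ctsc: gaatcttgtggaagcTGCtactcatttgcc
Ctsh: ggggcctgtggcagcTGCtggactttctct
Ctsz: cagtactgtggttccTGCtgggcccacggc

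The 10 genes lie on 7 chromosomes of GRCm38.p6 in RefSeq. Ctsa (chr2:164832872-164841032, plus strand) and Ctsz (chr2:174427494-174439039, minus) share chromosome 2, and Ctso (chr3:81932601-81956725, plus) and Ctss (chr3:95526786-95556405, plus) share chromosome 3. Ctsc (chr7:88278024-88315861, plus) and Ctsd (chr7:142375910-142387827, minus) share chromosome 7. Ctsh lies at chr9:90054267-90076095 (plus), Ctsl at chr13:64361890-64370772 (minus), Ctsb at chr14:63122462-63145923 (plus) and Ctsf at chr19:4855165-4860918 (plus). In GENCODE vM21 the exons of Ctsa overlap those of Pltp by 495 nt and Neurl2 by 324 nt on the other strand, and the exons of Ctsb overlap those of Fdft1 by 774 nt on the other strand. Ctsd shares 808 nt of exon with the predicted gene Gm49369 on its own strand, 37.99% of its exon length. Overlaps on opposite strands can mix reads of the genes where strand was not used, and no source used here gives that setting. For Gm49369, htseq-count would set shared reads aside as ambiguous if the authors' annotation held it.

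Gene counts per library ran from 33885850 to 47828111, and every member had at least 191 counts in each library. The 6 markers of dentate and CA neurons of the hippocampus summed to 393 to 741 CPM per library, with Dsp, a dentate gene, between 8.94 and 76.2 CPM, and the 8 choroid plexus markers summed to 163 to 6356 CPM, so these markers were uneven between libraries. Prnp averaged 1885 CPM (read counts scaled to the TMM-normalised library size) in PS19 libraries, against 888 CPM in WT, and Mapt, the tau gene, 618 CPM in PS19, against 525 CPM in WT. C3ar1 went against its label. It averaged 16.0 CPM in libraries labelled C3aR KO, against 2.09 CPM in WT, and 17.0 CPM in libraries labelled PS19/C3aR KO, against 10.3 CPM in PS19. No source used here says which part of C3ar1 was deleted, the count therefore does not check the knockout, and both genotypes are named as labelled. PS19 library 5 stood apart from the other 4 of its group: it was the lowest in 8 of the 10 members and second lowest in the other 2.

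In the hippocampus of PS19 mice, 9 of the 10 cathepsin transcripts rose relative to WT. Ctss rose 2.96-fold, Ctsz 2.66-fold, Ctsh 2.54-fold, Ctsd 2.42-fold and Ctsc 2.33-fold. Smaller increases were found for Ctsl (1.51-fold), Ctsa (1.47-fold), Ctsb (1.44-fold) and Ctso (1.18-fold), and Ctsf did not pass the test. Of all 16657 genes tested, 10.8% passed at a Benjamini-Hochberg adjusted p below 0.05 in edgeR's quasi-likelihood test, and 7.5% passed as higher. The members' median log2 fold change was 0.91, against -0.0068 over all genes tested. In 8 members every PS19 library lay above every WT library, a pattern found in 5.93% of genes.

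**Figure D1:**
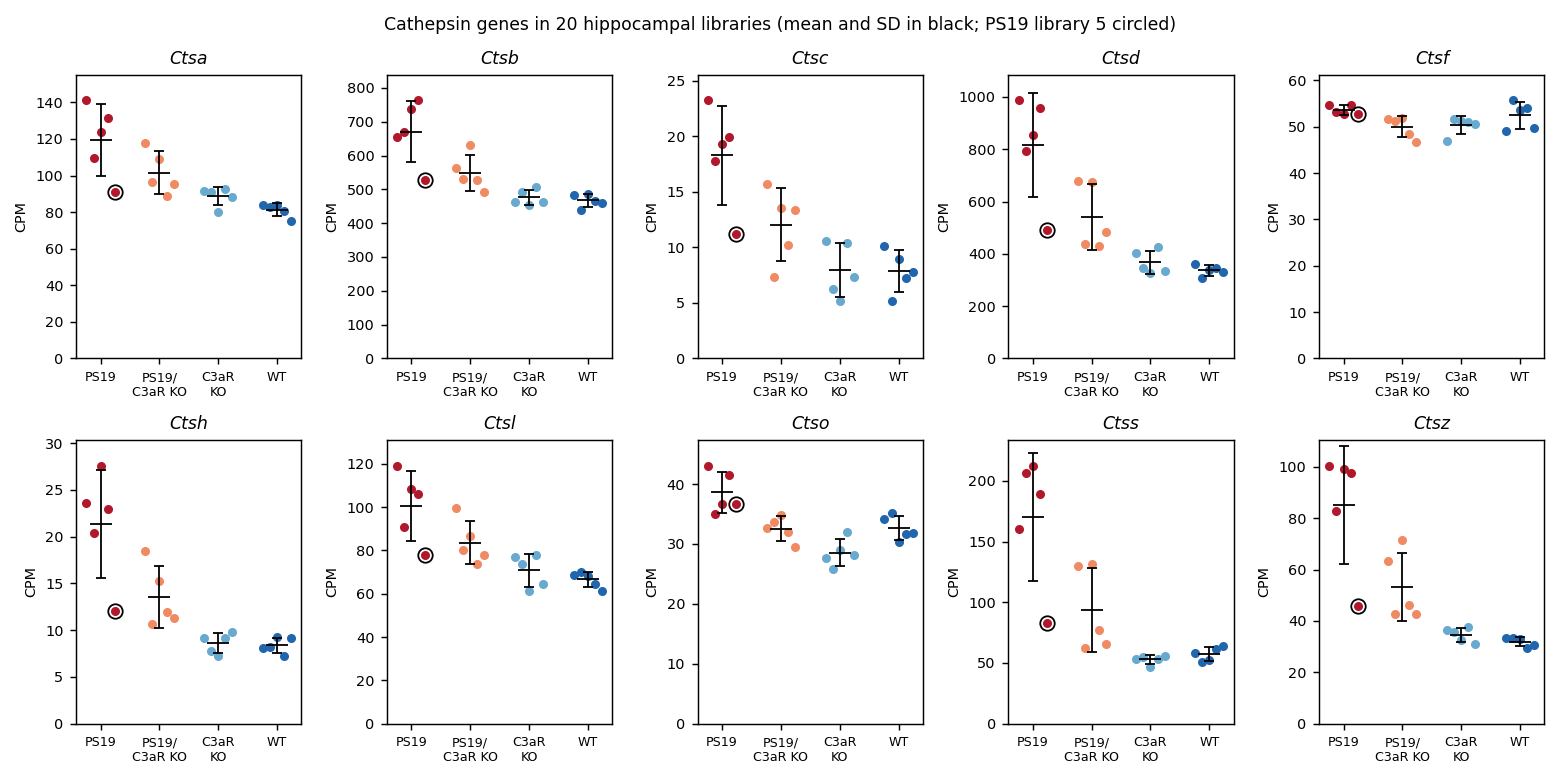
CPM of each of the 10 cathepsins in every library, 1 panel per gene with its own linear axis from 0, with the genotypes as labelled, PS19 at the left, then its C3aR KO cross, then the knockout alone, and WT at the right; points are libraries and bars the group mean ± SD (n = 5), and PS19 library 5 is circled. The PS19 points of Ctsd spread from 490.3 to 987 CPM while its WT points stay between 306 and 360.3 CPM, and the Ctsf points of PS19 and WT overlap.

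Ctsd, the aspartic protease that starts the breakdown of many proteins in lysosomes, had the highest level per exon length of the 10 in every group, while its unscaled CPM was below that of Ctsb in every group but PS19. Its levels were 987, 792, 854, 957 and 490.3 CPM in PS19 libraries 1 to 5, 680.3, 436, 675, 428 and 484 CPM in those labelled PS19/C3aR KO, 403, 345, 326, 428 and 336 CPM in those labelled C3aR KO, and 360.3, 306, 339.5, 347 and 332 CPM in WT. The PS19 and WT libraries did not overlap, PS19 library 5 being the nearest to WT, and Ctsd was higher in PS19 (log2 fold change 1.28, SE 0.16, adjusted p = 0.000163, edgeR).

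Ctsa has 2 known roles, as a carboxypeptidase and as the partner that keeps the glycosidases Neu1 and Glb1 stable. Its levels ran from 90.9 to 141 CPM (median 124) in PS19, 88.7 to 118 CPM (median 96.6) in libraries labelled PS19/C3aR KO, 80.3 to 92.9 CPM (median 90.9) in those labelled C3aR KO, and 75.4 to 84.1 CPM (median 83.0) in WT. PS19 and WT did not overlap (log2 fold change 0.55, SE 0.094, adjusted p = 0.000934, edgeR).

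Among the cysteine proteases that cut inside proteins, Ctsb, which also trims their ends, had the highest level, per exon length and in unscaled CPM. Ctsb stood at 655, 669, 738, 763 and 529 CPM in PS19 libraries 1 to 5, 563, 529.8, 632, 527 and 493 CPM in those labelled PS19/C3aR KO, 463, 493, 454, 508 and 464 CPM in those labelled C3aR KO, and 483, 439, 488, 466 and 459.8 CPM in WT. The PS19 and WT groups did not overlap (log2 fold change 0.52, SE 0.080, adjusted p = 0.000449, edgeR). Ctsl, a broadly acting endopeptidase, ran from 78.1 to 119 CPM (median 106) in PS19, 73.8 to 99.6 CPM (median 80.2) in libraries labelled PS19/C3aR KO, 61.2 to 77.9 CPM (median 73.7) in those labelled C3aR KO, and 61.4 to 69.9 CPM (median 68.3) in WT. Its PS19 libraries also lay above WT throughout (log2 fold change 0.59, SE 0.10, adjusted p = 0.000960, edgeR).

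Ctss, which keeps its activity at neutral pH and trims the invariant chain Cd74 of MHC class II, had the highest fold change of the 10. It stood at 161, 207, 213, 189 and 82.9 CPM in PS19 libraries 1 to 5, 129.5, 62.5, 132, 77.4 and 65.4 CPM in those labelled PS19/C3aR KO, 53.6, 54.8, 46.4, 53.7 and 56.0 CPM in those labelled C3aR KO, and 58.4, 51.0, 52.6, 61.5 and 64.3 CPM in WT. PS19 library 5 held less than the other 4 PS19 libraries but more than any WT library, and the increase passed the test (log2 fold change 1.57, SE 0.23, adjusted p = 0.000344, edgeR).

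Ctso, a cysteine protease of little-known substrates, and Ctsf were the members whose PS19 and WT libraries overlapped. Ctso ran from 35.0 to 43.1 CPM (median 36.7) in PS19, 29.4 to 34.9 CPM (median 32.7) in libraries labelled PS19/C3aR KO, 25.9 to 32.0 CPM (median 28.2) in those labelled C3aR KO, and 30.2 to 35.2 CPM (median 31.8) in WT. Its increase in PS19 was the smallest of the 9 (log2 fold change 0.24, SE 0.067, adjusted p = 0.0237, edgeR), and the call was lost when PS19 library 1 or 4, or WT library 3, 4 or 5, was left out, with edgeR adjusted p of 0.0767, 0.0736, 0.0663, 0.0662 and 0.0543.

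Ctsf stood at 54.8, 53.3, 52.7, 54.7 and 52.8 CPM in PS19 libraries 1 to 5, 51.7, 51.2, 51.9, 48.4 and 46.8 CPM in those labelled PS19/C3aR KO, 47.0, 51.8, 51.3, 51.0 and 50.5 CPM in those labelled C3aR KO, and 49.0, 55.7, 53.7, 54.1 and 49.8 CPM in WT. The PS19 libraries lay within the WT range and above those with a knockout label, and the PS19 difference from WT was near 0 with a 95% interval of -0.055 to 0.12 (log2 fold change 0.033, SE 0.042, adjusted p = 0.701, edgeR). Its upper bound lies below the smallest estimate among the other 9 members, 0.24 for Ctso. The 95% interval of Ctso, 0.10 to 0.38, overlaps that of Ctsf, and the difference between genes was not tested.

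The 3 exopeptidases among the cysteine members rose by more than 2-fold. Ctsz, a carboxypeptidase that removes single residues, stood at 100.5, 82.9, 99.0, 97.4 and 45.9 CPM in PS19 libraries 1 to 5, 63.4, 42.9, 71.4, 46.2 and 42.9 CPM in those labelled PS19/C3aR KO, 36.3, 35.8, 32.5, 37.5 and 31.2 CPM in those labelled C3aR KO, and 33.2, 33.5, 32.9, 29.7 and 30.6 CPM in WT. Again every PS19 library was above WT and library 5 was the lowest of its group (log2 fold change 1.41, SE 0.17, adjusted p = 0.000163, edgeR). Ctsh, an aminopeptidase, stood at 23.6, 20.4, 27.6, 22.9 and 12.1 CPM in PS19 libraries 1 to 5, 18.5, 10.7, 15.3, 11.9 and 11.4 CPM in those labelled PS19/C3aR KO, 9.14, 7.75, 7.23, 9.16 and 9.83 CPM in those labelled C3aR KO, and 8.13, 8.19, 9.22, 7.28 and 9.17 CPM in WT. The PS19 and WT groups did not overlap (log2 fold change 1.34, SE 0.18, adjusted p = 0.000217, edgeR).

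Ctsc, or dipeptidyl peptidase I, removes dipeptides and activates the serine proteases of immune cell granules. It ran from 11.2 to 23.2 CPM (median 19.3) in PS19, 7.30 to 15.7 CPM (median 13.3) in libraries labelled PS19/C3aR KO, 5.14 to 10.6 CPM (median 7.35) in those labelled C3aR KO, and 5.12 to 10.2 CPM (median 7.79) in WT. Ctsc had the lowest length-scaled level of the 10, and its PS19 and WT libraries were separate by 11.2 against 10.2 CPM (log2 fold change 1.22, SE 0.24, adjusted p = 0.00270, edgeR). PS19 library 3 held 52.2 CPM of the 5 neutrophil markers in the files, against 0.215 to 3.04 CPM in the other 19 libraries. Without it, Ctsc (log2 fold change 1.20, SE 0.26, adjusted p = 0.00846) and Ctsh (log2 fold change 1.23, SE 0.18, adjusted p = 0.000868) were still higher in PS19.

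**Figure D2:**
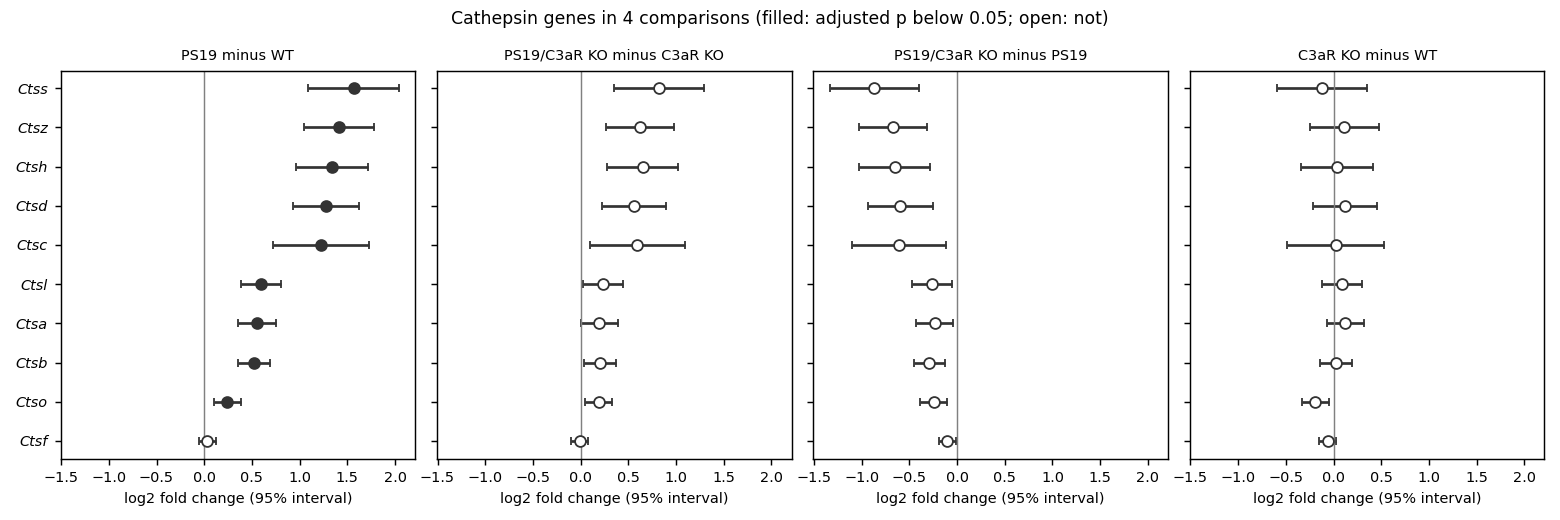
Log2 fold changes of the 10 cathepsins in 4 comparisons with 95% intervals from the edgeR fit to 20 libraries; filled points passed an adjusted p below 0.05. Filled points stand for 9 members in PS19 against WT, from 0.24 for Ctso to 1.57 for Ctss, and none of the 10 is filled in the comparison of PS19/C3aR KO with PS19, where all points lie below 0.

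Scaled by exon length (CPM per kb of exon in GENCODE vM21), levels were set side by side between members. The annotation used for counting is not given, so the order and shares that rest on these lengths are approximate. Reads in exons that Ctsd shares with Gm49369 may be missing from its level. In PS19 the mean was 384 ± 93.2 CPM per kb for Ctsd, 141 ± 19.3 for Ctsb, 125 ± 39.0 for Ctss, 59.1 ± 16.0 for Ctsz and 51.0 ± 8.15 for Ctsl (SD, n = 5). In WT these were 158 ± 9.43 CPM per kb for Ctsd, 98.5 ± 4.08 for Ctsb, 42.4 ± 4.19 for Ctss, 22.2 ± 1.22 for Ctsz and 33.8 ± 1.78 for Ctsl. The order in PS19 was Ctsd, Ctsb, Ctss, Ctsz, Ctsl, Ctsa, Ctsf, Ctsh, Ctso and Ctsc. In WT it was Ctsd, Ctsb, Ctss, Ctsl, Ctsf, Ctsz, Ctsa, Ctso, Ctsh and Ctsc, so Ctsz and Ctsa stood below Ctsf there, and Ctsh below Ctso.

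Neighbours in the PS19 order overlapped over libraries for Ctsb and Ctss, Ctss and Ctsz, Ctsz and Ctsl, Ctsa and Ctsf, and Ctsh and Ctso, while in WT Ctsz and Ctsa were the only overlapping neighbours. Ctsd made up 44.9% of the length-scaled total of the 10 in PS19, against 37.7% in WT. Ctsb made up 17.0% in PS19, against 23.5% in WT, and Ctsf 3.34% in PS19, against 6.32% in WT. These shares describe the mixture and were not tested.

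Microglia, the brain's resident macrophages, rank high among the sources of several cathepsins, and their markers moved with the members. All 14 microglia and macrophage markers rose in PS19, with a median log2 fold change of 1.22. Those with the lowest p included Tyrobp (1.98), Cd53 (1.37) and Ly86 (1.81). The summed level of the 14 ran from 478 to 905 CPM in PS19 (median 846), 400 to 653 CPM in libraries labelled PS19/C3aR KO (median 438), 336 to 392 CPM in those labelled C3aR KO (median 353), and 344 to 376 CPM in WT (median 372). PS19 library 5 was the lowest PS19 library here too, and none of the 14 markers was at 0. Of 8 astrocyte markers 7 rose in PS19, with a median of 0.38, among them Gfap (2.42), Aqp4 (0.89), Sox9 (0.65) and Gja1 (0.29). Of 6 markers of border-associated macrophages, Ms4a7 (1.25) alone rose. Of 8 mature oligodendrocyte markers 2 rose, Cldn11 (0.65) and Mag (0.56), while 2 of 8 neuronal markers fell, Slc17a7 (-0.30) and Rbfox3 (-0.19). None of 6 markers of dentate and CA neurons, 5 of endothelial cells and 8 of choroid plexus passed (medians -0.26, 0.0075 and 0.88), and of 2 tested T and NK cell markers Ccl5 (3.04) rose. The part of cell composition in the cathepsin changes was not tested, and in bulk tissue fewer cells of a type and less RNA per cell cannot be told apart.

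Rn45s, the precursor of ribosomal RNA, took a mean of 1.85% of gene counts in PS19, against 3.59% in WT. PS19 libraries 1 to 4 stood at 0.873 to 1.77%, and PS19 library 5 at 3.65%, within the WT range of 2.85 to 4.48%. The part of the Rn45s share in the lower cathepsin values of library 5 was not tested. With the Rn45s share as a covariate, 8 members were still called higher in PS19, on a background of 2.59% of genes called in either direction. Ctso was not (log2 fold change 0.19, SE 0.081, adjusted p = 0.218, edgeR).

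In libraries labelled PS19/C3aR KO no member passed the test against PS19, although all 10 had a lower estimate, as did 51.3% of genes. The differences were -0.87 for Ctss, -0.68 for Ctsz, -0.65 for Ctsh, -0.61 for Ctsc and -0.59 for Ctsd on the log2 scale. They were -0.29 for Ctsb, -0.27 for Ctsl, -0.25 for Ctso, -0.23 for Ctsa and -0.10 for Ctsf. Of all genes tested, 0.252% passed in this comparison in edgeR. It shares its PS19 libraries with the comparison of PS19 with WT.

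The lowest adjusted p-values in edgeR were 0.0830 for Ctsz (95% interval -1.03 to -0.32), 0.0881 for Ctss (-1.34 to -0.40) and 0.0965 for Ctsh (-1.02 to -0.29). At an unadjusted p below 0.05 all 10 members were lower, against 8.91% of genes. These are not 10 separate results, since most members varied together from library to library (median correlation 0.73 within genotypes, without Ctsf). The members' median was -0.44. In Ctsf and Ctso every library labelled PS19/C3aR KO lay below every PS19 library, a pattern of 1.58% of genes. DESeq2 called 6 of the 10 lower, Ctsb, Ctsd, Ctsh, Ctso, Ctss and Ctsz, on a background of 2.66% called in either direction.

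The result of this comparison turned on single libraries. Without PS19 library 5, edgeR called 7 members lower, on a background of 2.5% of genes called lower. For Ctss the log2 fold change was -1.04 with SE 0.18 and adjusted p = 0.00645. For Ctsz the log2 fold change was -0.83 with SE 0.12 and adjusted p = 0.00325. For Ctsd the log2 fold change was -0.73 with SE 0.13 and adjusted p = 0.00645. Ctsh, Ctsb, Ctsa and Ctsl were the others called, and Ctsc, Ctsf and Ctso were not. Without PS19/C3aR KO library 1, edgeR called Ctsd, Ctsh and Ctss, on a background of 1.33% called in either direction. Leaving out any other single library of the 2 groups gave no called member.

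**Figure D3:**
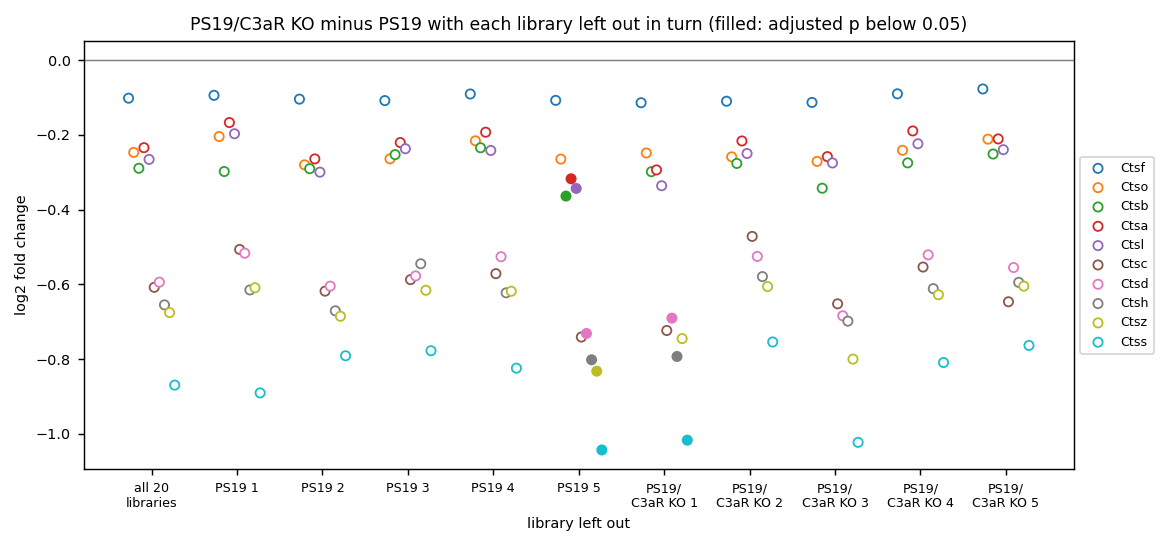
Log2 fold change of each of the 10 cathepsins in PS19/C3aR KO minus PS19 (vertical axis), with all 20 libraries at the left and then with each library of these groups left out in turn (horizontal axis); filled points passed an adjusted p below 0.05 in edgeR. All points lie below 0, 7 are filled without PS19 library 5, 3 without PS19/C3aR KO library 1, and 0 elsewhere.

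The libraries labelled PS19/C3aR KO fell into higher and lower ones across most members. Libraries 1 and 3 lay high and libraries 2, 4 and 5 low: library 3 was among the top 2 of its group in 10 of 10 members and library 1 in 9 of 10. In Ctso, library 2 (33.6 CPM) stood above library 1 (32.7 CPM). The gap was narrow in Ctsc, with 13.5 CPM in library 3 and 13.3 CPM in library 5. It was also narrow in Ctsf, with 51.7 CPM in library 1 and 51.2 CPM in library 2. The mean log2 difference from the WT mean over the 10 members was 0.67, 0.19, 0.64, 0.25 and 0.26 in libraries 1 to 5 labelled PS19/C3aR KO, and 1.04, 0.85, 1.01, 1.01 and 0.34 in PS19. PS19 library 5 thus stood among the values of the libraries labelled PS19/C3aR KO. The summed microglia markers followed the same split, with 631 and 653 CPM in libraries 1 and 3, and 438, 437 and 400 CPM in libraries 2, 4 and 5. The summed astrocyte markers did too, with 8109 and 8353 CPM in libraries 1 and 3, and 7191, 6770 and 6859 CPM in libraries 2, 4 and 5. Gfap, the astrocyte filament gene, stood at 1865 and 1463 CPM in the first set and 771, 1004 and 661 CPM in the second. Single astrocyte markers were divided: Aqp4, Slc1a3 and Sox9 split as Gfap did, while Slc1a2, Aldh1l1, Gja1 and Aldoc did not. Slc1a2, the highest of the 8, stood at 4172 and 4700 CPM in libraries 1 and 3, and 4492, 3794 and 4276 CPM in libraries 2, 4 and 5. None of the 14 microglia markers passed the test against PS19, with a median of -0.61, nor did any of the 8 astrocyte or 8 oligodendrocyte markers, all of which had lower estimates (medians -0.20 and -0.29). The part of these markers in the difference was not tested.

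**Figure D4:**
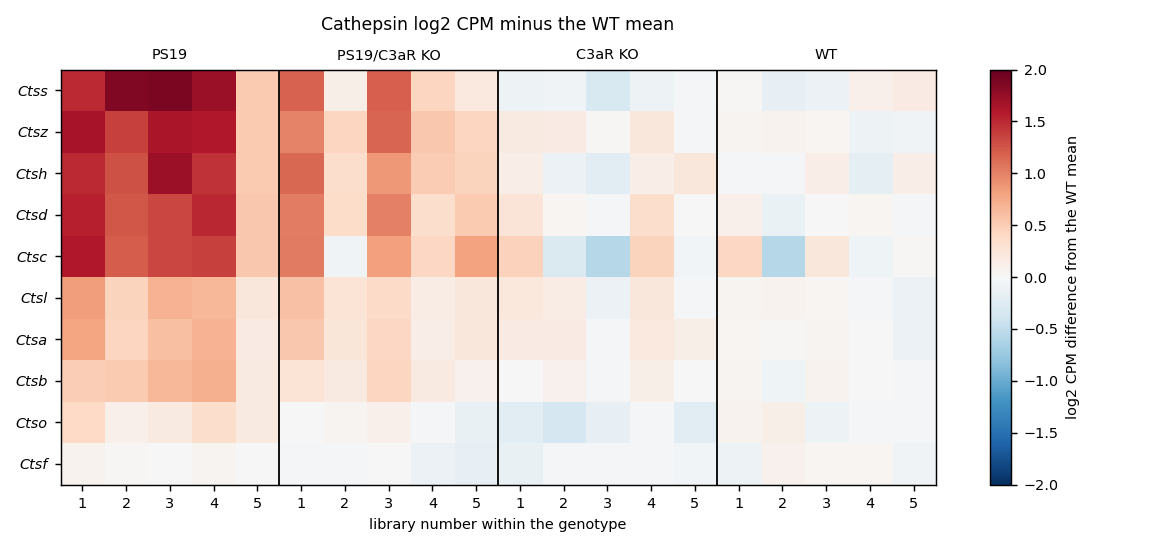
Log2 CPM of each cathepsin minus its WT mean, as colour, in the 20 libraries ordered by group, PS19 first and WT last. PS19 libraries 1 to 4 are darkest, above all in the rows of Ctss, Ctsz, Ctsh, Ctsd and Ctsc, and PS19 library 5 is paler, at a mean of 0.34 over the 10 members.

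Against WT, the libraries labelled PS19/C3aR KO had 2 members called higher, on a background of 1.07% of genes called in either direction and 0.588% called higher. Ctsd averaged 541 ± 127 CPM (SD, n = 5) in libraries labelled PS19/C3aR KO, against 337 CPM in WT, where it ran from 306 to 360.3 CPM (log2 fold change 0.68, SE 0.16, adjusted p = 0.0455, edgeR). Ctsz averaged 53.4 ± 13.2 CPM in libraries labelled PS19/C3aR KO and 32.0 ± 1.76 CPM in WT (SD, n = 5 each; log2 fold change 0.74, SE 0.17, adjusted p = 0.0447, edgeR). In 6 members the libraries did not overlap and lay above WT, against 2.06% of genes. These calls rest on few libraries: no member was called without any one WT library, or without PS19/C3aR KO library 1 or 3, with the lowest adjusted p of each such fit between 0.0533 and 0.147. Without library 2, Ctsd, Ctsh and Ctsz were called, on a background of 1.68% of genes, and without library 4 Ctsd alone, on a background of 0.573%. No member was called by limma-voom, with Rn45s as a covariate, or in a fit of these groups alone.

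Between libraries labelled PS19/C3aR KO and those labelled C3aR KO no member was called. Ctss averaged 93.3 ± 34.5 CPM in libraries labelled PS19/C3aR KO and 52.9 ± 3.74 CPM in those labelled C3aR KO (SD, n = 5 each; log2 fold change 0.82, SE 0.22, adjusted p = 0.188, edgeR). Ctsh averaged 13.6 ± 3.29 CPM in libraries labelled PS19/C3aR KO and 8.62 ± 1.09 CPM in those labelled C3aR KO (SD, n = 5 each; log2 fold change 0.65, SE 0.18, adjusted p = 0.188, edgeR). The estimate was positive in 9 members, as in 49.4% of genes, and -0.0095 in Ctsf. The background was 0.006% of genes, a single gene.

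At an unadjusted p below 0.05, 8 of the 10 members were higher, against 5.97% of genes. In 4 members (Ctsd, Ctsh, Ctss, Ctsz), all libraries labelled PS19/C3aR KO lay above all those labelled C3aR KO, Ctsd by less than 1 CPM, a pattern of 1.3% of genes. DESeq2 called 3 members, Ctsh, Ctss and Ctsz, on a background of 0.949% called in either direction. The DESeq2 adjusted p-values were 0.0456, 0.0316 and 0.0424.

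The knockout label without the transgene was not accompanied by a called change in any member, on a background of 0.06% of genes. All 10 members overlapped between libraries labelled C3aR KO and WT. Ctso was the member with an unadjusted p below 0.05, against 6% of genes, at 28.6 ± 2.25 CPM in libraries labelled C3aR KO and 32.6 ± 2.02 CPM in WT (SD, n = 5 each; log2 fold change -0.19, SE 0.067, adjusted p = 0.627, edgeR). The 95% intervals of this contrast ran from -0.59 to 0.35 for Ctss and from -0.21 to 0.46 for Ctsd. DESeq2 called 0 members as well, on a background of 0.348%.

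The difference between the 2 transgene contrasts was tested as an interaction, the change of PS19/C3aR KO from C3aR KO minus the change of PS19 from WT. No member passed, on a background of 0.012% of genes, and all 10 estimates were negative, as were 50.3% of genes. The adjusted p rounded to 1 for every member. Ctsz had the lowest unadjusted p, 0.00418, at -0.79 ± 0.24 (log2, SE), and Ctsd had 0.00514, at -0.72 ± 0.23. At an unadjusted p below 0.05, 7 members passed as lower, against 2.91% of genes. Without PS19 library 5 the lowest adjusted p in edgeR was 0.0644, for Ctsz (log2 difference -0.95).

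Of 13 further cathepsin genes, 4 had enough counts to be tested, and Ctse, an aspartic protease of immune cells, was the one called in PS19. Ctse averaged 1.08 CPM in PS19 and 0.104 CPM in WT (log2 fold change 3.35, SE 0.64, adjusted p = 0.00214, edgeR). Its counts were low and uneven, at 70, 51, 74, 12 and 11 in PS19 libraries 1 to 5, against 2 to 6 in WT libraries. Ctsk, Ctsw and Cts8 did not pass. The genes Ctsj, Ctsll3, Ctsm, Ctsq, Ctsr, Cts3, Cts6 and Cts7 were at 0 in all 20 libraries, most of them known as placental cathepsins of rodents.

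Of the cystatins, which block cysteine cathepsins, 15 are in the files and 4 could be tested, and 3 of these rose in PS19. Cst3, cystatin C, a secreted inhibitor, averaged 1145 CPM in PS19 and 783 CPM in WT (log2 fold change 0.55, SE 0.10, adjusted p = 0.00170, edgeR). Cst7, cystatin F, an inhibitor inside the lysosomes of immune cells, averaged 7.10 CPM in PS19 and 0.168 CPM in WT (log2 fold change 5.40, SE 0.62, adjusted p = 9.13e-05, edgeR). Cstb, a cytosolic inhibitor, rose by less (log2 fold change 0.28, SE 0.070, adjusted p = 0.0123, edgeR), and Cst6 had a log2 difference of -0.47 that did not pass. In libraries labelled PS19/C3aR KO none of the 4 passed against PS19, and Cst3 and Cst7 were higher than in WT.

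Among 7 genes of cathepsin activators and protective partners, 4 rose in PS19. Cd74, whose product is a substrate of Ctss and, as a splice form, an inhibitor of cysteine cathepsins, rose by 1.85 on the log2 scale, and Grn, the progranulin gene linked to Ctsd maturation, by 0.97. Lgmn, the protease that cuts several cathepsins to their mature chains, rose by 0.62 and Glb1 by 0.28, while Psap, Neu1 and Tmem106b did not pass. Cd74 was the one gene of these lists called between libraries labelled PS19/C3aR KO and PS19, where it was lower (log2 fold change -1.28, SE 0.25, adjusted p = 0.0361, edgeR).

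Of 7 other lysosomal proteases and peptidases 4 rose in PS19, Lgmn, which also stands among the activators, Scpep1 (0.38), Tpp1 (0.31) and Dpp7 (0.24). Prcp, Napsa and Cpq did not pass. Of 7 serpins and other protease inhibitors 3 rose, A2m (2.19), Timp1 (1.76) and Serpina3n (1.26).

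Genes of delivery had a median near 0 in PS19 against WT, and those of acidification a median below 0. Of the 16 tested genes of the vacuolar proton pump, 11 had a negative estimate, as did 51.7% of all genes tested. Of 8 genes of delivery to the lysosome, Scarb2, the receptor of glucocerebrosidase, was the one called (log2 fold change 0.30, SE 0.058, adjusted p = 0.00265, edgeR), and the list's median log2 fold change was 0.0033. Of 16 tested genes of the vacuolar proton pump 4 fell, Atp6v0e2 (-0.22), Atp6v1b2 (-0.19), Atp6v1e1 (-0.13) and Atp6v1g2 (-0.20), none rose, and the median was -0.10, where 3.32% of all genes tested were called lower. Of 3 tested transcription factors of lysosomal genes, Tfeb rose (log2 fold change 0.66, SE 0.14, adjusted p = 0.00429, edgeR).

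**Figure D5:**
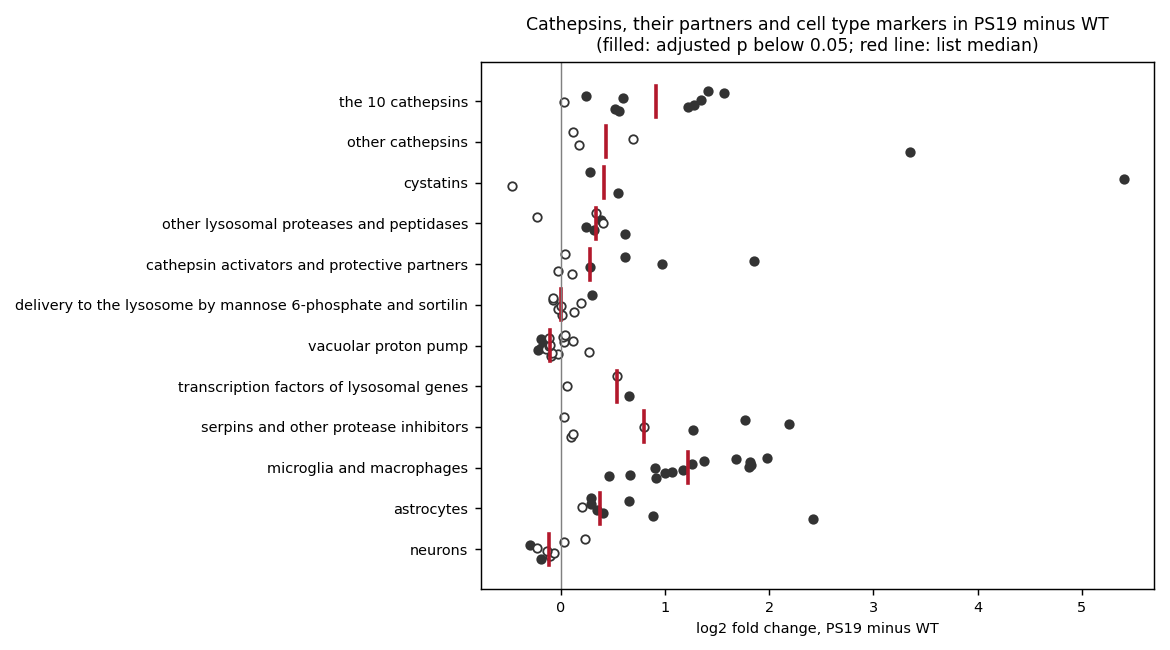
Log2 fold changes in PS19 against WT of the genes in each list, as points, with the list's median as a red line; filled points passed an adjusted p below 0.05. The 10 cathepsins have a median of 0.91 and the vacuolar proton pump -0.10, and the highest point is Cst7 at 5.40.

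The members' promoters were read for the CACGTG motif, since TFEB binds lysosomal genes at TCACGTGA-like elements. RefSeq windows of GRCm38.p6, from 250 bases before to 50 after a transcript start, matched 8 of the 10 members, all but Ctsb and Ctsh. CACGTG, which reads the same on both strands, was found in 4 of these 8, Ctsa, Ctsd, Ctsf and Ctsl, and in 8.093% of all 27025 genes with a window. TCACGTGA, which also reads the same on both strands and contains CACGTG, was found in Ctsa and Ctsd and in 1.125% of genes. The 60-base stretches around the motif are shown for these 2 and for Ctsf, which holds CACGTG and was not called in PS19, with CACGTG in capitals.
Ctsd (chr7:142387893-142387952, minus strand): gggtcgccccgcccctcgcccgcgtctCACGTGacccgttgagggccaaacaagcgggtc
Ctsa (chr2:164833713-164833772, plus strand): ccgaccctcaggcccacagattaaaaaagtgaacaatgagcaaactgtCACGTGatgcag
Ctsf (chr19:4855059-4855118, plus strand): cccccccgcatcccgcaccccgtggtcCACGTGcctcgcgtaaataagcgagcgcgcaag
Ctss, Ctsz, Ctsc and Ctso rose in PS19 without these letters in their windows. A match describes the letters and does not show binding.

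Within genotypes, most members varied together from library to library. Taking each library's log2 CPM minus its genotype mean over the 20 libraries, the 36 pairs among the 9 members other than Ctsf had correlations of 0.14 to 0.95 with a median of 0.73. The closest pairs were Ctsa with Ctsl at 0.95 and Ctsd with Ctsz at 0.92, while Ctsf ran from -0.31 with Ctsc to 0.36 with Ctso. All these values come from the same 20 libraries and their depths, and no test was made of them. Counts of members in each comparison are therefore not counts of independent results.

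Genes most like each member by the same measure, over 12814 genes, differed between members. For Ctss they were Pld4 (0.97), C1qa (0.95) and Fyb (0.95), and for Ctsz they included C1qa and Tst (0.94 each). For Ctsd they included Cd81 and Apoe (0.92 each), and for Ctsh Pros1 (0.95), Clic1 and Lyz2 (0.94 each). For Ctsb they included Grn (0.87) and Mlc1 (0.86). For Ctsa they were Tmem176b (0.94), Klhl6 (0.89) and Lgmn (0.88), and for Ctsl Tmem176b (0.92), Cd63 (0.89) and Rrbp1 (0.87). For Ctsc they were Mgst1 (0.93), Plscr2 and Cd63 (0.90 each). The least close were Asah1 (0.83), Ctnnbip1 and Adora2b for Ctso and Masp1 (0.84), Tsta3 and Samm50 for Ctsf.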

How the data were processed

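Per the labels' protocols, the authors extracted RNA with RNeasy Mini columns, sequenced 76-nt read pairs on a HiSeq instrument, aligned them to mm10 with TopHat 2.0.9 and counted reads over each gene's exons with htseq-count. Deposited were these counts as whole numbers, not normalized. DESeq2 is named without a role, per the submitters' processing notes, and no source used here gives the annotation release or the strand setting. Pairs outside annotated exons came to 17.4 to 25.4% and ambiguous pairs to 1.39 to 1.64% of uniquely aligned pairs, and neither entered library sizes or tests. Groups were taken from the sample titles.

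All tests came from 1 edgeR 4.0.16 quasi-likelihood fit (R 4.3.3) to the 20 libraries with TMM normalization, genotype as the factor and filterByExpr at a minimum count of 10 and total of 15, with Benjamini-Hochberg adjustment over all 16657 tested genes in each comparison. CPM are counts scaled to the TMM-normalised library size, and correlations used log2 CPM with a prior count of 2. The SE of a log2 fold change is its size over the square root of F. Chi-square over degrees of freedom was 8.62 to 104 between libraries of the same genotype, above sampling noise, and none was treated as a duplicate. Alternatives were DESeq2 1.42.0, limma-voom (limma 3.58.1), other size factors and filters, covariates, a replicate block, fits of 2 groups and leaving out each library. The fit was tested on simulated data.

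The 10 members and the marker and pathway lists were chosen with earlier results of these data known, and the genes named are the members, up to 4 called genes of each list with the lowest p, the uncalled genes of the short pathway lists, and the 3 genes most like each member. A few items that these rules name, sequences included, are not reported here.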

Additional observations from a re-analysis of the deposited data

Results flagged for a closer look

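In 40 sets of 5 libraries, 10 members in 4 groups, a single library stood far from the rest of its group in 2, judged by the gap to its nearest neighbour as a share of the group's range with a limit of 0.71, and chance gives such a gap in about 1 of 20 groups. Ctsf was lowest in C3aR KO library 1, at 47.0 CPM, against 50.5 to 51.8 CPM in the other 4 libraries with that label. Ctss was lowest in C3aR KO library 3, at 46.4 CPM, against 53.6 to 56.0 CPM in the others. PS19 library 5, the lowest of its group in 8 members, did not pass this limit in any of them.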

How the results depend on the processing

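The number of members called in PS19 against WT was 8 or 9 under all alternatives run, and Ctso was the member lost. For PS19/C3aR KO against PS19 the count of 0 became 6 in DESeq2, 2 with a replicate block (1.27% of genes), and 0 to 7 when a library was left out. For PS19/C3aR KO against C3aR KO it became 3 in DESeq2. For PS19/C3aR KO against WT the count of 2 became 6 in DESeq2 (3.55% of genes), 3 with total gene counts, 1 with no filter on low counts, 0 in limma-voom, with the Rn45s share as a covariate and in the fit of these 2 groups alone, and 0 to 3 when a library was left out. Counts for C3aR KO against WT and for the interaction stayed at 0 under every alternative run.

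Signs turned for estimates near 0 that were not called. With the Rn45s covariate these were -0.0098 for Ctsf in PS19 against WT, 0.00093 for Ctsf in PS19/C3aR KO against C3aR KO, -0.031, -0.083 and -0.0070 for Ctsb, Ctsh and Ctsz in C3aR KO against WT, and 0.011 and 0.0047 for Ctsf and Ctso in the interaction. With total gene counts they were 0.015 for Ctsf in PS19/C3aR KO against C3aR KO and 0.060 for Ctso in PS19/C3aR KO against WT. With a stricter filter these 2 were 0.00060 and 0.0068. Leaving out 1 library gave -0.036 to 0.0071 and -0.026 to 0.029 for them, and -0.099 to 0.14 and -0.0094 to 0.099 for Ctsc and Ctsh in C3aR KO against WT. The cause was not tested.

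Replicate numbers are not said in the labels to pair libraries, and the correlations after subtracting genotype means did not settle it. Same-numbered libraries had a median correlation of 0.14 over 30 pairs, against -0.042 over 120 pairs with other numbers. Over 0.1 were 16 of the 30 and 36 of the 120, and in no comparison all 5 same-numbered pairs. In PS19/C3aR KO against PS19 4 of 5 were over 0.1. Of 20 libraries, 6 correlated best with their own number. With the replicate block, Ctsd and Ctsz were called in PS19/C3aR KO against PS19.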

Other observations

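Ctsg, the granule cathepsin of neutrophils, had 15 counts in PS19 library 3 and 0 to 3 counts in the other 19 libraries, and was not tested. PS19 library 3 also held 607 counts of Ngp and 160 of Mpo, neutrophil granule genes that were called higher in PS19, against at most 26 and 17 counts in any other library.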
